A study of Homo sapiens with 4 samples.

Results

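The neural transcription factor genes described here are 44 of the 20163 protein-coding genes of GENCODE release 44 mapped to hg19. They were named from textbook knowledge of neurogenesis and neuroendocrine differentiation, but with earlier results of these data known. An NRSF/REST site was assigned to a gene when it lay in the gene or within 10 kb of its boundaries. By this rule 31 of the 5323 sites called at basal SF-1 and 28 of the 5059 called at the increased dosage belong to these genes. The cells, named H295R/TR SF-1, are 1 clone derived from H295R, a human adrenocortical tumor line, and make extra SF-1 when doxycycline is added. An antibody against NRSF/REST was used for ChIP-seq in 1 library without doxycycline (basal SF-1) and 1 library after 3 days of doxycycline (overexpressed SF-1, here the increased dosage), and the labels list another 2 input DNA libraries, not analysed here. The labels give the doxycycline as 1 mg per ml and the paper as 1 µg per ml. With 1 library per dosage there is no replicate, so no difference between dosages was tested, and intervals given below are 95% Wilson intervals that cover counting error only. The deposited lists hold the position of each site, its order number in the list and a score that is 1000 for every site; read counts and depth are unknown, so a site missing from a list was not called, which does not show that the factor was absent. Expression of the genes and of markers of the cell type was not measured in these libraries.

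NRSF/REST is a zinc finger protein that recruits histone deacetylases and other corepressors to the DNA and keeps genes of the neuronal programme silent in cells that are not neurons. It reads a long element, known as RE1 or NRSE, built of a left and a right part with a short fixed spacer. The genes considered here act above that programme. Proneural factors such as NEUROG3 and NEUROD1 start neuronal or endocrine differentiation, and LIM homeodomain, POU and other homeodomain factors then set the identity of particular neurons.

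At the loci that carry the clearest matches the element can be read directly in the hg19 sequence. The following stretches each come from a site called at both dosages whose best match has at most 1 mismatch, and from the widest such site where a gene has several. The consensus searched on both strands was CAGCACC, then 2 free bases, then GGACAG, with 13 fixed bases in all, and each sequence below is read in its direction with 2 bases before and 4 bases after it. Capitals mark the fixed bases that match. Substitutions name the consensus base, its position (position 1 is the C that opens the consensus) and the base in the genome.
BARHL1, chr9:135457562-135457582, minus strand: gtCAGCACCgtGGACAGcgcc
LHX3, chr9:139096981-139097001, minus strand: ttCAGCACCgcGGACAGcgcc
LHX5, chr12:113918069-113918089, minus strand: ttCAGCACCgcGGACAGctcc
POU4F3, chr5:145720252-145720272, minus strand: ttCAGCACCacGGACAGcaca
NEUROG3, chr10:71327772-71327792, plus strand, A12T: ttCAGCACCatGGtCAGgggc
NEUROD1, chr2:182550199-182550219, plus strand, G15A: atCAGCACCgtGGACAattcc
POU4F1, chr13:79163540-79163560, minus strand, A12C: ttCAGCACCgcGGcCAGctcc
ONECUT1, chr15:53075695-53075715, minus strand, C4G: gtCAGgACCctGGACAGggtc
ONECUT2, chr18:55114511-55114531, plus strand, G11A: ttCAGCACCacGaACAGcgcc
MYT1, chr20:62793411-62793431, minus strand, C7T: atCAGCACttcGGACAGcgct
EBF1, chr5:158143884-158143904, minus strand, C1T: tttAGCACCttGGACAGctct
NEUROD1 and MYT1 also have a site of equal or larger width whose best match has 2 mismatches, not printed here. The first 4 sequences match without a mismatch. The substitutions of the other 7 fall at 6 positions of the consensus, with A12 replaced at both NEUROG3 and POU4F1.

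NRSF/REST sites were called at 22 of the 44 genes at the basal dosage, or 50% (35.8 to 64.2%), and at 20 of them at the increased dosage, or 45.5% (31.7 to 59.9%). Over all protein-coding genes the shares with a site by the same rule were 13.9% and 13.6%. Each of these 20 was also among the 22. Thus 45.5% of the 44 genes had a site at both dosages, against 10.5% of protein-coding genes. Of the 2736 protein-coding genes with a site at the increased dosage, 2112 had one at both. ATOH1 and NEUROD2 had a site in the basal list only. These 44 were chosen with earlier results of these data known, so the counts describe this list and give no independent evidence about neural genes at large. In each list, 8 of the 44 genes held 2 or more sites, or 18.2%, against 3.21% (basal) and 3.07% (increased) of protein-coding genes. LHX5 was among the 8 in the basal list only and BARHL1 at the increased dosage only. These shares are not weighted by gene length.

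Gene length enters such a count, because a longer gene offers more room for a site. The 44 genes are short, with a median length of 6.42 kb against 27.2 kb for all protein-coding genes. Among genes under 5 kb, 6 of 16 neural factor genes had a basal site, or 37.5% (18.5 to 61.4%), against 7.21% of the other genes of that length. From 5 to 20 kb the counts were 8 of 14 and 9.07%, and from 20 to 100 kb they were 3 of 8 and 11.6%. Of the 6 genes of 100 kb or more, 5 had a site, against 31.1% of the others. At the increased dosage the counts in the same 4 classes were 5, 7, 3 and 5, against 6.79%, 9.03%, 11.2% and 30.5% of the other genes. Weighted to the lengths of the 44 genes, 11.9% of the other protein-coding genes had a basal site, and 11.6% had one in the other list. The share of neural factor genes with a site was thus above that of other genes in every length class and in both lists.

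**Figure D1:**
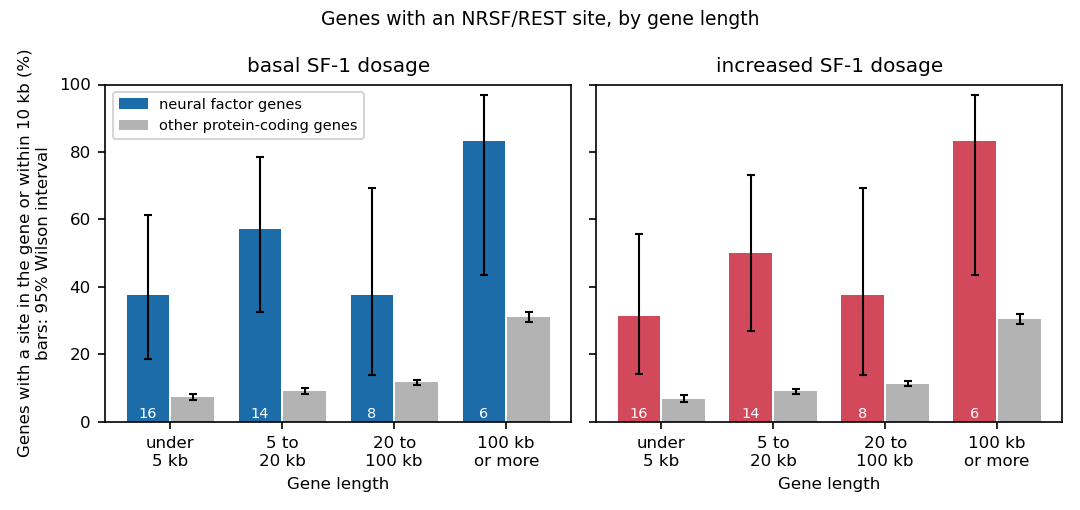
Percentage of genes with an NRSF/REST site in the gene or within 10 kb, by gene length, for the 44 neural factor genes (coloured bars, number of genes at their foot) and all other protein-coding genes (grey bars), with the basal list on the left and the increased-dosage list on the right; lines are 95% Wilson intervals over genes. The coloured bars run from 31.2% to 83.3% and the grey bars from 6.79% to 31.1%.

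Lists of other transcription factor genes gave lower counts. In a list of 60 other neural factors, 7 had a basal site, or 11.7% (5.77 to 22.2%), namely ASCL4, GSX1, LMX1A, OTP, PAX5, PAX7 and ZIC2, and 6 had a site at the increased dosage, where ZIC2 was not called. In a list of 62 factors of other lineages, such as muscle, blood and gut, 6 had a basal site, or 9.68% (4.51 to 19.5%), and 5 had one at the increased dosage. Both are near the shares over all protein-coding genes. Like the neural factor genes described above, the genes of both lists were chosen with earlier results of these data known. The counts thus describe the lists only, and the contrast with the neural factor genes is no independent comparison, because it can follow from the choice. The widest site in either list was at PAX5, a factor of B cells and the midbrain, with 1049 bp at the basal and 1099 bp at the increased dosage.

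In all, 32 separate loci lie at the 22 genes, counting overlapping sites of the 2 lists as 1 locus. Of these, 27 were called at both dosages, 4 at the basal dosage only and 1 at the increased dosage only. Counted per list, 27 of 31 basal sites were also in the other list, or 87.1% (71.1 to 94.9%), and 27 of 28 sites at the increased dosage were, or 96.4% (82.3 to 99.4%). Over all sites these shares were 64.5% and 67.9%. Width moves with this result: 24 of the 31 basal sites and 25 of the 28 sites at the increased dosage belonged to the widest 50% of their list, and sites of at least 500 bp were nearly all shared throughout the lists. Below 250 bp, 3 of the 6 basal sites at neural factor genes were shared, against 26.5% of the 2397 other sites of that width. From 250 to 499 bp, 8 of 9 basal sites were, against 91.9%. At the increased dosage the counts were 3 of 3 against 32.2% below 250 bp, and 6 of 7 against 94.4% from 250 to 499 bp. The neural factor sites were thus not shared more often in every width class. In all 32 loci the nearest start of a protein-coding gene was that of the neural factor gene itself. The rule of 10 kb favours this result, and no share for other genes is given beside it.

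The sites at these genes were wide and stood early in the lists. Their median width was 549 bp (basal) and 599 bp (increased), against 299 bp for all sites in both lists. Widths ranged from 99 to 1399 bp and from 199 to 1349 bp. By order number, 9 of the 31 basal sites were among the first 10% of the list, and so were 9 of the 28 sites at the increased dosage. What the order rests on is not given in the sources used here, but wide sites come first. The promoter site of LHX3 at the increased dosage departs from this, being 1349 bp wide at order number 1491.

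**Figure D2:**
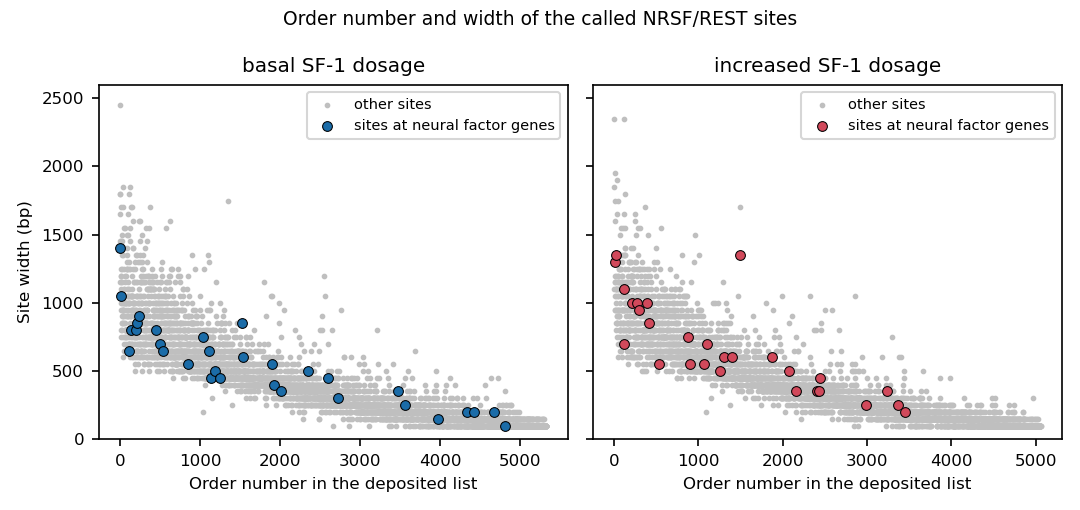
Width in bp against the order number in the deposited list for every NRSF/REST site (grey) and for the sites at neural factor genes (coloured), with the basal list on the left and the increased-dosage list on the right. The sites at neural factor genes spread over most of the list, with BARHL1 at numbers 7 and 5 and INSM2 at number 16 in both, and the point at 1349 bp near number 1500 on the right is the LHX3 promoter.

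Among the 11 bHLH factors, which bind DNA as dimers through a basic helix-loop-helix domain, 5 had a basal site and 3 had a site at the increased dosage. NEUROD1, needed for neurons and for pancreatic islets, had a pair of loci. The first, chr2:182542451-182543349, lies in coding exon 2 and measured 899 bp at the basal and 949 bp at the increased dosage. The second, chr2:182549901-182550499, lies upstream, at -4.96 kb from the start, and measured 599 bp in both lists. NEUROD1 thus held called sites on both sides of its start at both dosages. NEUROD4, a factor of neuronal differentiation, had a site over its start, chr12:55413501-55414149, of 649 bp at the basal and 699 bp at the increased dosage. It stood at order numbers 113 and 117, yet its best match to the consensus has 3 mismatches. The site of NEUROG3, which starts the endocrine lineage of the pancreas, lies 5.40 kb downstream of the start at chr10:71327351-71328049 and measured 699 bp and 999 bp.

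At 2 further bHLH genes only the basal list holds a site. ATOH1, required for hair cells and cerebellar granule neurons, had 349 bp over the coding exon at order number 3473 of 5323. NEUROD2 had 99 bp, the narrowest of all these sites, 5.47 kb from its start at order number 4802. Neither holds a match of at most 2 mismatches, and both come late in the list. NEUROD2 also shows the effect of the 10 kb limit, because a site with a match without mismatch, chr17:37748251-37749299, was called 10.5 kb from the gene, with a width of 1049 bp at the basal and 999 bp at the increased dosage. OLIG2, a factor of motor neurons and oligodendrocytes, likewise had its nearest site 12.0 kb away at both dosages, of 249 bp and 199 bp. ATOH7, HAND2, NEUROD6, NEUROG1, NEUROG2 and OLIG2 had no site by the rule.

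Of the 10 listed LIM homeodomain genes, whose products combine a homeodomain with protein-binding LIM domains, 3 had a site, each at both dosages. LHX3, a factor of the pituitary and of motor neurons, carried a match without mismatch at -18 bp from its start. The site over it, chr9:139096651-139097499, grew from 849 bp (basal) to 1349 bp (increased), the largest gain in width among the 27 loci. A second LHX3 site in intron 1, chr9:139093601-139093849, was narrow in both lists, with 249 and 199 bp. LHX4, its closest relative and also a pituitary factor, had a site in intron 1, chr1:180210951-180211499, of 549 and 599 bp, with no match of at most 3 mismatches. LHX5, a factor of the developing forebrain, had a site upstream, at -8.40 kb, chr12:113917651-113918499, of 849 and 999 bp, inside the antisense RNA gene LHX5-AS1. A second LHX5 site of 199 bp, chr12:113918951-113919149, was called at the basal dosage only. ISL1, ISL2, LHX1, LHX2, LHX6, LHX8 and LHX9 had none. Related genes were alike in some cases, with LHX3 and LHX4 both called and ISL1 and ISL2 both not, and split in another, with LHX5 called and LHX1 not.

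The listed POU genes gave 4 of 6 at both dosages. All 3 POU4F genes, factors of sensory neurons, retinal ganglion cells and hair cells, had a site. POU4F3 had a site over the 3′ UTR in exon 2, chr5:145719901-145720699, of 799 bp at the basal and 1099 bp at the increased dosage. POU4F2 had a site upstream, at -1.82 kb from its start, chr4:147557901-147558699, of 799 and 999 bp. A second POU4F2 site lies 5.13 kb downstream of the start, chr4:147564801-147565449, and measured 649 and 699 bp. POU4F1 had its site 14.1 kb downstream of the start, chr13:79163301-79163949, of 649 and 549 bp, in the long non-coding RNA gene OBI1-AS1. POU4F1 and POU4F2 thus both had a site downstream of the gene, POU4F2 had another upstream, and the site of POU4F3 was in its 3′ UTR. POU3F1, a factor of myelinating Schwann cells, had a site upstream, at -1.16 kb, chr1:38513401-38513849, of 449 and 349 bp, without a match. Its relatives POU3F2 and POU3F3 had no site, and neither had POU3F4, which is in the list of other neural factors.

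Of the 8 other homeodomain genes, 4 had a site at both dosages. BARHL1, a factor of the inner ear and of migrating neurons, had the earliest sites among the 44 genes in both lists, at order number 7 of the basal list and 5 of the other. The site chr9:135456751-135458149 covers the start and measured 1399 bp at the basal and 1299 bp at the increased dosage. It holds 3 matches of at most 2 mismatches, among them the one printed above, at -420 bp from the start, and another with the substitution C13G at -322 bp. A further BARHL1 site of 349 bp, chr9:135458401-135458749, lies over coding exon 1 and is the only locus called at the increased dosage alone. BARHL2, its paralogue, had a site 9.77 kb downstream of its start, chr1:91172551-91173349, of 799 and 849 bp.
ONECUT1 and ONECUT2, factors of liver, pancreas and retina, both had a site in intron 1. That of ONECUT1, chr15:53075501-53076249, measured 749 bp in both lists, and that of ONECUT2, chr18:55114251-55114749, 499 and 599 bp. ONECUT2 had another site over its start, chr18:55102401-55102699, of 299 and 349 bp, which holds no match of at most 3 mismatches. NKX2-2, PAX6, PHOX2A and TLX3 had no site. ONECUT3, in the list of other neural factors, had none at either dosage. PAX6, a factor of eye and forebrain, was 169 kb from the nearest site in both lists.

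The zinc finger genes gave 4 of 5 at both dosages. INSM2, an intronless gene whose relative INSM1 drives neuroendocrine differentiation, had a site over its coding sequence, chr14:36003901-36004949, of 1049 bp at the basal and 1349 bp at the increased dosage. At order number 16 in both lists it was behind BARHL1 only. INSM1 had no site, and the nearest one was 303 kb away in both lists. The MYT1 family, repressors active in developing neurons, was covered in all its 3 genes. MYT1 had a site at -2.38 kb from the canonical start, chr20:62793251-62793649, of 399 and 499 bp. A site of 199 bp in its intron 1, chr20:62798251-62798449, was called at the basal dosage only, although it holds a match with the single substitution C13G. The MYT1 site in intron 2, chr20:62823651-62824149, measured 499 and 449 bp. MYT1L, which helps turn fibroblasts into neurons in reprogramming, had a site in intron 1, chr2:2332601-2333049, of 449 and 549 bp, without a match. ST18 had a site in intron 6 of 349 bp and one in intron 2 of 549 bp, each of equal width in both lists.

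The EBF factors serve B cells and olfactory and other neurons, and 2 of the 3 listed genes had a site. EBF4, in the list of other neural factors, had none at either dosage. EBF1 had a site deep in intron 11, 383 kb from its start, chr5:158143701-158144149, of 449 and 499 bp. It had another upstream, at -6.85 kb, of 149 and 249 bp. EBF2 had a site in its intron 11 of 199 and 249 bp. EBF3, with 138 kb the longest of the 22 genes without a site, was 764 kb from the nearest one. SOX1, a marker of neural progenitors, had no site.

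**Figure D3:**
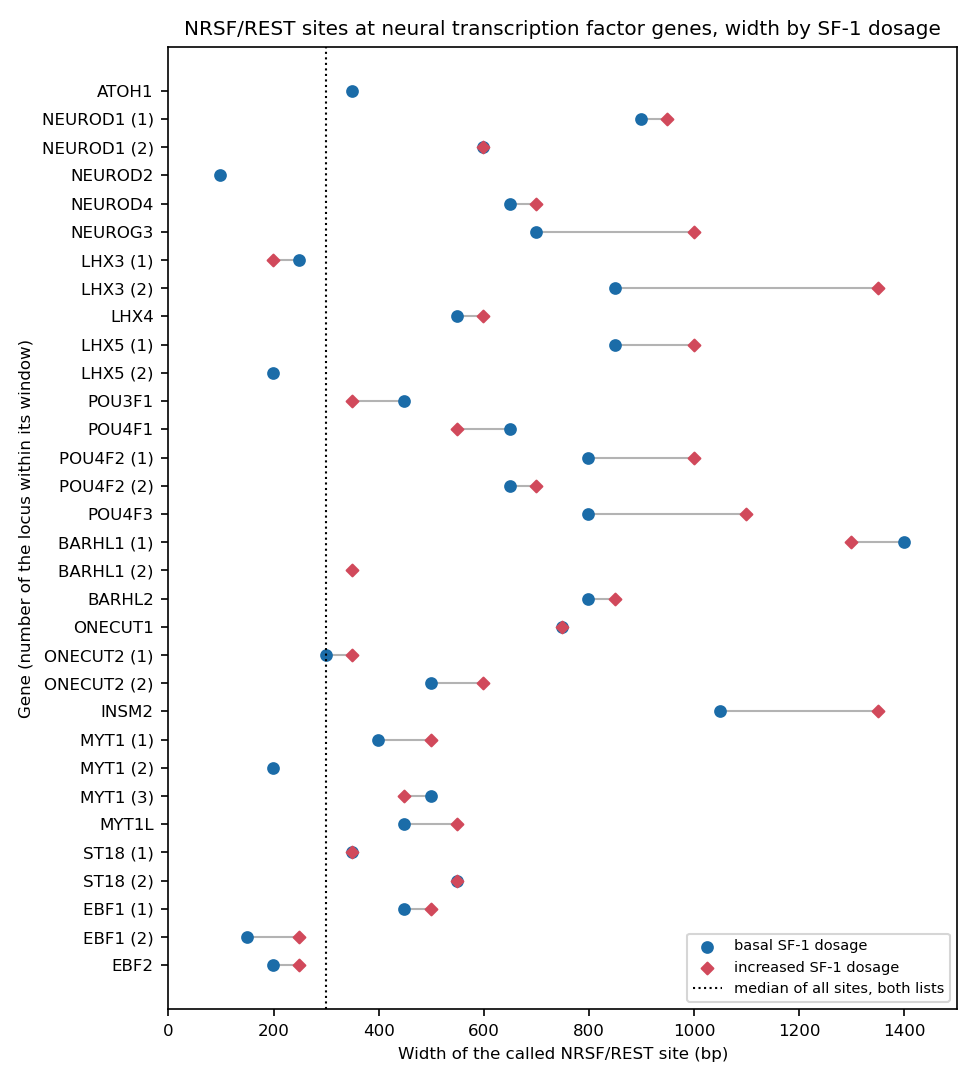
Width in bp of the called site at each of the 32 loci (loci of a gene are numbered by position on the chromosome) at the basal (circles) and increased (diamonds) SF-1 dosage; a locus with 1 symbol was called at that dosage only, and the dotted line is the median of all sites, 299 bp. Most loci lie to the right of the line, with BARHL1 (1), LHX3 (2) and INSM2 widest.

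Between dosages, 18 of the 27 loci called at both were wider at the increased dosage, 5 were wider at the basal dosage and 4 were of equal width. The difference of increased minus basal width had a median of 50 bp, from -100 bp at POU3F1, POU4F1 and BARHL1 to 500 bp at the LHX3 promoter. Site boundaries fall on 50 bp steps, so the median is 1 step. Among all shared basal sites, 35.4% were wider at the increased dosage and the median difference was 0 bp. The lean towards wider sites was clearest among loci of at least 750 bp at the basal dosage, with 7 of 8 against 35.8% of all shared sites of that width. Between 500 and 749 bp it was 4 of 8 against 42.0%. Whether this exceeds the spread between libraries of 1 dosage cannot be told, because there is 1 of each.

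The loci lie in varied parts of their genes. By the consensus match, or by the midpoint where there is none, 11 of 32 were in an intron of the canonical transcript, 4 in a coding exon, 1 in the 5′ UTR and 1 in the 3′ UTR. Another 9 were upstream of the gene, 5 downstream of it and 1, at MYT1, inside the gene record but outside the canonical transcript. Within 1 kb of the start lay 6 loci, at ATOH1, NEUROD4, LHX3, BARHL1 (both its loci) and ONECUT2, and within 5 kb lay 16. In 12 of the 19 loci with a match it read in the direction of the gene. Another gene record was overlapped at 7 loci, among them LHX5-AS1, OBI1-AS1 and, at NEUROD1, the protein-coding gene CERKL.

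**Figure D4:**
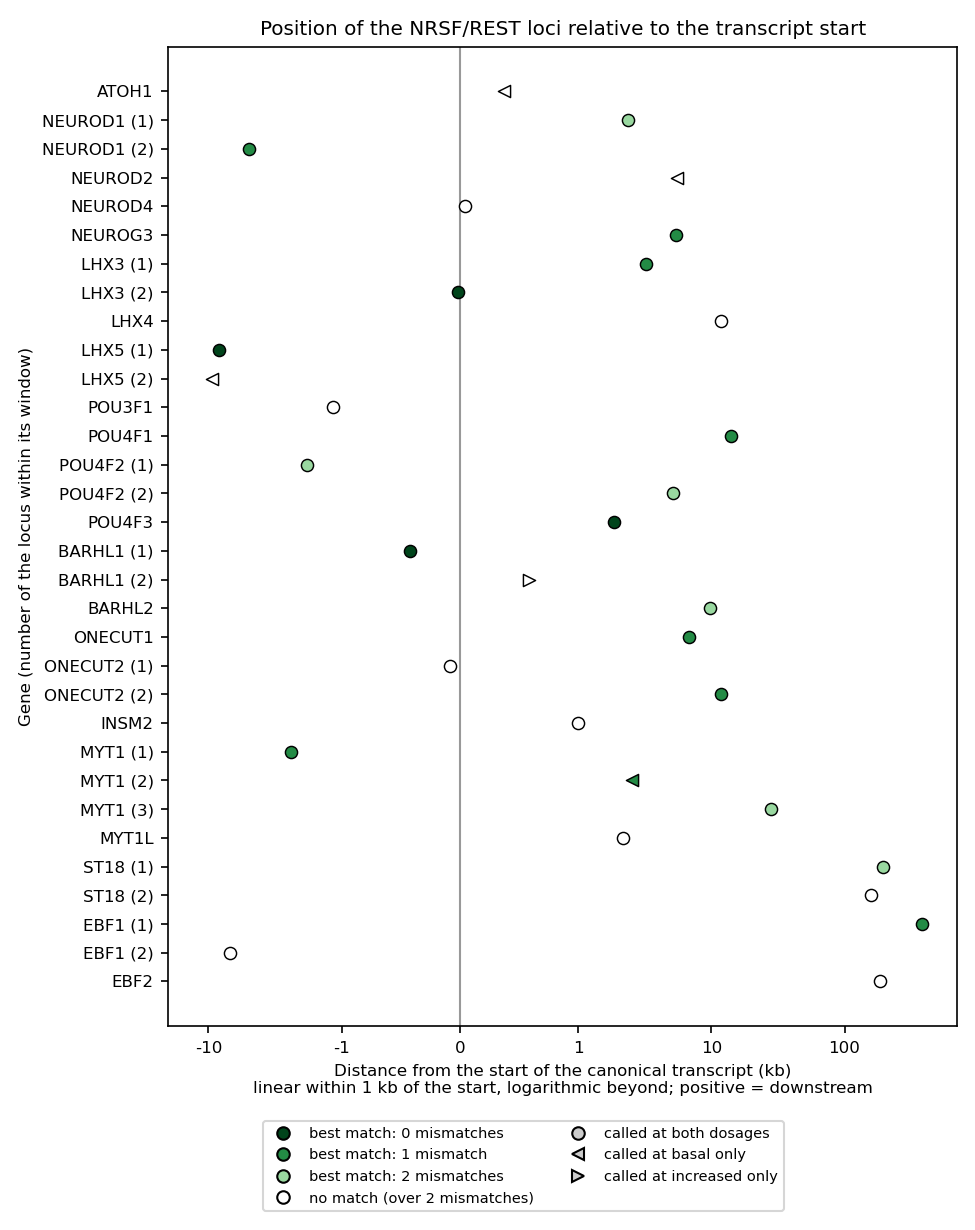
Distance in kb of each locus from the start of the canonical transcript (linear within 1 kb, logarithmic beyond, positive values downstream); fill gives the mismatches of the best consensus match, and triangles mark loci called at 1 dosage only. The matches without mismatch, at LHX3, LHX5, POU4F3 and BARHL1, lie at -0.018, -8.40, 1.86 and -0.42 kb.

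With at most 2 mismatches, 19 of the 31 basal sites held the consensus, or 61.3% (43.8 to 76.3%), and 18 of the 28 sites at the increased dosage did, or 64.3% (45.8 to 79.3%). Over all sites the shares were 40.7% and 42.1%, and in windows of equal width lying 10 kb from the sites 1.79% and 1.80%. The windows beside the neural factor sites themselves held it in 3 of 62 cases, or 4.84%, and in 2 of 56, or 3.57%. The wider sites carried it more often in both groups. Of the sites of at least 750 bp, 7 of 8 at neural factor genes held it at the basal dosage against 82.1% of the other sites of that width, and from 500 to 749 bp 5 of 8 did against 76.8%. In each of the 4 width classes and both lists, the interval of the neural factor sites took in the share of the other sites. With at most 1 mismatch the counts were 13 of 31 and 12 of 28, against 28.5% and 29.8% of all sites. Of the 27 loci called at both dosages 18 held the consensus, and of the 5 called at 1 dosage 1 did, in intron 1 of MYT1. The match lay a median of 60 bp from the middle of the locus, and at most 167 bp.

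**Figure D5:**
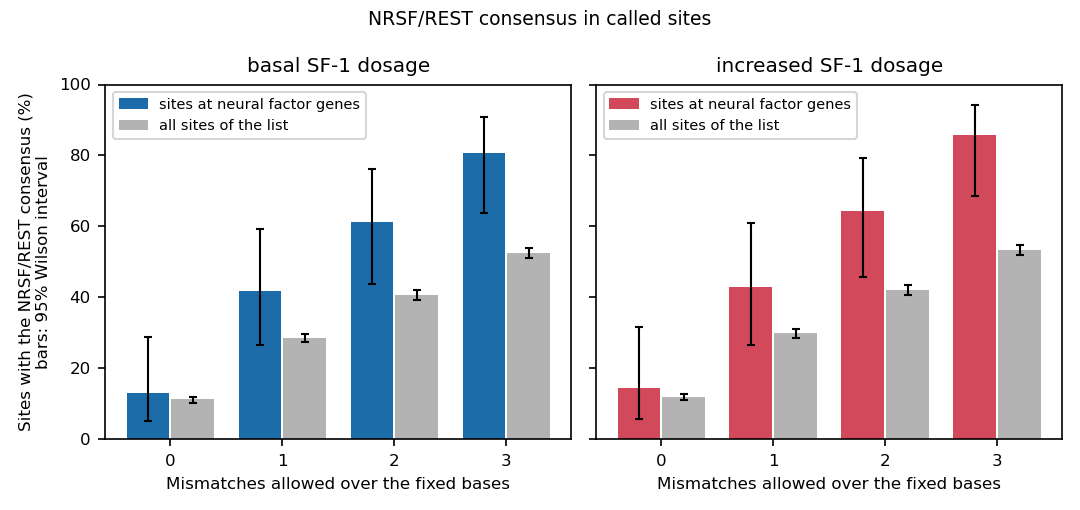
Percentage of sites with the NRSF/REST consensus when 0 to 3 mismatches are allowed over its 13 fixed bases, for sites at neural factor genes (coloured) and all sites of the list (grey), with the basal list on the left and the increased-dosage list on the right; lines are 95% Wilson intervals over sites. The coloured bars rise from 12.9% to 80.6% on the left and from 14.3% to 85.7% on the right, and the grey bars from 11.2% to 52.5% and from 11.8% to 53.2%.

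Some loci hold both parts of the consensus, CAGCACC and GGACAG, at another distance than 2 bases. They are shown because the INSM2 locus, among the first of both lists, has no match with the usual spacer, and were chosen after their values had been seen. All 3 lie on the plus strand, and capitals mark the parts without mismatch.
INSM2, chr14:36004587-36004600, 1 base apart: CAGCACCcGGACAG
LHX3 intron 1, chr9:139093759-139093778, 7 bases apart: CAGCACCgcggaccGGACAG
MYT1 intron 2, chr20:62823928-62823948, 8 bases apart: CAGCACCaggcatgtGGACAG
At LHX3 the left part is also that of the match with 1 mismatch (A14C) in the same site. At MYT1 the site holds, besides, a match with 2 mismatches and the usual spacer. Among all sites without the consensus, 4.91% at the basal and 5.29% at the increased dosage held both parts without mismatch at 0 to 20 bases apart other than 2, against 0.0317% and 0.0683% of their upstream windows. The neural factor sites without the consensus gave 1 of 12, or 8.33% (1.49 to 35.4%), and 1 of 10, each time the INSM2 site, and in both lists their interval took in the share over all sites. These shares do not apply to the LHX3 and MYT1 loci, which hold the consensus. Binding to these single sequences was not measured. Of the 9 loci called at both dosages without the consensus, the other 8 have neither it nor both parts without mismatch, namely those of NEUROD4, LHX4, POU3F1, MYT1L and EBF2, the ONECUT2 locus at the start, the ST18 locus in intron 2 and the upstream EBF1 locus.

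The sites at neural factor genes were also rich in CpG dinucleotides. Their median was 4.04 CpG per 100 bp at the basal and 4.43 at the increased dosage, against 1.00 for all sites in both lists. The median GC content was 54.2% and 53.0%, against 45.5% and 45.2%. Genes of developmental regulators often lie in CpG islands, and these values are given as a property of the sites without a test.

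Matches to the consensus that were not called show the other side of the comparison. In the windows of the 44 genes lie 4 matches without mismatch, and all 4 were in a called site at both dosages, against 75.4% and 75.8% of 574 such matches around all protein-coding genes. With at most 1 mismatch there were 24 matches, of which 14 were in a basal site and 13 in a site at the increased dosage, or 58.3% (38.8 to 75.5%) and 54.2% (35.1 to 72.1%). Around all protein-coding genes 18.5% of 5615 matches were in a site in each list. The 44 genes were chosen with earlier results of these data known, so these shares describe the list only. Among the 22 genes without a site, 3 have a match of at most 1 mismatch in their window, namely OLIG2, NKX2-2 and EBF3. Those not called, leaving out 2 at EBF2, are printed with the same capitals for comparison with the called ones above.
OLIG2, chr21:34388460-34388480, plus strand, G10T: ctCAGCACCtatGACAGttca
NKX2-2, chr20:21502654-21502674, plus strand, A5C: ccCAGCcCCtgGGACAGtccc
EBF3, chr10:131662670-131662690, plus strand, C7T: tgCAGCACtggGGACAGaatc
POU3F1, chr1:38502592-38502612, plus strand, C4A: tcCAGaACCtaGGACAGaacc
BARHL1, chr9:135462742-135462762, plus strand, A5T: tcCAGCtCCagGGACAGtccc
MYT1, chr20:62869177-62869197, plus strand, G11C: ccCAGCACCcaGcACAGccac
MYT1L, chr2:1803373-1803393, plus strand, G3A: ctCAaCACCctGGACAGacaa
EBF1, chr5:158500741-158500761, minus strand, A12G: gcCAGCACCgcGGgCAGtcat
The base just before the consensus differs between these and the called matches, a comparison chosen after the sequences had been seen. It is T in 13 of the 14 matches that lie in a site and in 2 of the 10 that do not. In the windows of the other protein-coding genes T stands there in 70.4% (67.6 to 73.0%) of 1063 matches in a site and in 19.6% (18.4 to 20.7%) of 4528 matches in none. Of those genes' matches with T at that place 45.8% were in a site, and of those without it 7.96% were. T at this place is part of the longer RE1 element as it is usually drawn. The other protein-coding genes thus show a difference in the same direction.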

How the data were processed

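NRSF/REST ChIP-seq was done in 1 library per SF-1 dosage. Reads were mapped by the authors to hg19 (ELAND v2; CASAVA 1.6 per the labels), who deposited 1 list of called sites per library with a constant score of 1000; peak caller settings are stated for SF-1 sites, not separately for NRSF/REST sites. No read counts are in the lists, so depth is unknown. Genes, the consensus and the lists of other factors were chosen with earlier results of these data known.

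From the lists, starts were converted to a count from 1, and sites touching a gene of GENCODE release 44 (mapped to hg19) or its 10 kb flanks by at least 1 bp were assigned to it, using pysam 0.24.0, scipy 1.17.1 and numpy 2.4.6 under Python 3.11.15. A site counted as shared if 1 bp or more of it lay in a site of the other list. Positions refer to the Ensembl canonical transcript. The consensus was searched in the GRCh37 primary assembly, the same build as hg19 on the chromosomes used. No significance test was made, because there is 1 library per dosage and the gene list was chosen. All 44 genes are named, and the sequences printed are those of each gene's widest shared site among those with at most 1 mismatch, and uncalled matches of at most 1 mismatch, none from chromosome 8. Outside this rule, 3 sequences with the consensus parts at another distance were added after their values had been seen. On simulated data 200 of 200 planted matches, 200 of 200 gene windows and 15 of 15 positions were recovered.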

Additional observations from a re-analysis of the deposited data

How the results depend on the processing

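No alternative moved the number of neural factor genes with a site by more than 1.5 times: it was 15 to 23 at the basal and 14 to 22 at the increased dosage, lowest with the gene body alone and highest within 50 kb. The weighted share of other protein-coding genes with a site moved more, to 7.46% and 7.41% (basal and increased) with the gene body alone, 8.72% and 8.56% within 2 kb, 24.6% and 24% within 50 kb, 7.30% and 6.93% with the widest 50% of sites, and 7.23% and 6.87% with the first 50% by order number; smaller windows and shorter lists lower it by construction. The share of sites also in the other list was 95.8% of basal sites for the widest 50%, and 100% in both lists for the first 50% by order number. The share with the consensus was 12.9% and 14.3% without mismatch, 41.9% and 42.9% with at most 1, and 80.6% and 85.7% with at most 3. Matches lying in a site were 100% without mismatch and 11.7% with at most 2, in both lists. The median site width ran from 499 to 649 bp and from 549 to 724 bp. No paired analysis was possible because each dosage has 1 library. Depth is unknown, so narrow sites called in 1 list cannot be told from sites near the caller's limit.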
